A study of Mus musculus with 18 samples.

Results

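The mouse genome encodes a family of Toll-like receptors, and 10 of them were followed here: Tlr1, Tlr2, Tlr3, Tlr4, Tlr5, Tlr6, Tlr7, Tlr8, Tlr9 and Tlr13. They were taken by gene symbol from the 36172 gene rows of the deposited matrix, each matched exactly 1 row, and all 10 were among the 14803 genes that passed the filter on low counts.

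Brain RNA came from male and female Cx3cr1-cre/ERT2+; NuTRAP+ mice, which were given tamoxifen at about 3 months of age. In these mice tamoxifen activates a Cre recombinase that is driven by the Cx3cr1 locus, and the recombined NuTRAP allele tags ribosomes with EGFP in Cx3cr1-expressing cells, which in brain are mainly microglia and also include macrophages at its borders. Cre is inserted at Cx3cr1, so every animal carried that insertion, and PBS controls had the tamoxifen too. At 3 to 4 weeks after it, LPS (lipopolysaccharide, a component of the Gram-negative outer membrane) was given at 5 mg/kg into the peritoneum, with PBS (saline) as the control, and the brain was collected 24 h later. From each half-brain a lysate sample (Input) and the RNA on ribosomes captured with an anti-GFP antibody (Positive) were sequenced. The groups Input PBS, Input LPS and Positive PBS had 4 libraries each and Positive LPS had 5, and 8 of the 9 animals gave both fractions. Each PBS group held 2 females and 2 males. Input LPS held 3 females and 1 male, and Positive LPS 4 females and 1 male, so sex was not balanced between treatments. The Input library of LPS animal 271 held 1252 counts in all and was left out.

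Each Toll-like receptor is a single-pass membrane protein whose outer horseshoe of leucine-rich repeats binds a microbial molecule and whose inner TIR domain recruits adaptor proteins. At the cell surface TLR2 pairs with TLR1 or TLR6 to bind bacterial lipopeptides, TLR4 with its partner MD-2 binds LPS, and TLR5 binds flagellin. In endosomes TLR3 binds double-stranded RNA, TLR7 and TLR8 bind single-stranded RNA, TLR9 binds CpG DNA and TLR13 binds bacterial ribosomal RNA. All but TLR3 signal through the adaptor MyD88 to NF-kB, and TLR3 and TLR4 signal through TRIF. Microglia, the resident macrophages of the brain, are its best known carriers of these receptors.

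The 17 libraries used held 22968939 to 35123345 estimated counts. All values below are normalised read counts, that is estimated counts divided by a size factor for library depth. Microglial markers checked the fraction labels: the summed level of 10 genes, among them P2ry12, Tmem119 and Cx3cr1, was 168311 to 210548 in Positive PBS and 9859 to 12718 in Input PBS. After LPS the same sum was 95479 to 139459 in the positive fraction. Transcripts that mark other cells were still present in that fraction. The sum of 8 neuron markers was 223837 to 265402 in Positive PBS and 220949 to 235763 in Input PBS. For 8 astrocyte markers it was 134299 to 183963 and 130722 to 136297. Oligodendrocyte markers were lower, at 22193 to 29565 against 100649 to 158341. What such RNA adds to the levels of the members was not tested. A change in a transcript between groups cannot be told apart from a change in the number or kind of cells that carry it.

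The genes sit at 8 places in the mm10 genome. Tlr1 and Tlr6 are neighbours on the minus strand of chromosome 5, at 64924680 to 64932699 and 64953095 to 64960034. Tlr8 and Tlr7 are neighbours on the minus strand of chromosome X, at 167242732 to 167263788 and 167304931 to 167330528, and Tlr13 lies elsewhere on X, at 106143275 to 106160493. Tlr2 is on chromosome 3 at 83836272 to 83841608, Tlr3 on chromosome 8 at 45395665 to 45410539, Tlr4 on chromosome 4 at 66827811 to 66842796, Tlr5 on chromosome 1 at 182954788 to 182976044 and Tlr9 on chromosome 9 at 106222598 to 106226876.

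Tlr1 and Tlr6 also have part of their sequence in common, which matters for counting. Of the 2984 stretches of 42 bases (the length of a trimmed read) in the Tlr1 transcript, 509 (17.1%) are also in the Tlr6 transcript, and the longest identical run is 229 bases. Of the Tlr6 stretches 14.4% are in the transcript of some other gene on the same strand. The other 8 members had no such stretch in common with another gene on the same strand. Part of the reads of Tlr1 and Tlr6 could therefore have been divided between them, and their values carry that uncertainty.

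The stretch just upstream of an annotated start site was available from RefSeq (GRCm38.p6) for 8 of the 10 members, all but Tlr4 and Tlr7. Shown are 250 bases before the first listed start. The genes are Tlr2, which had the largest LPS response, Tlr3, which did not pass in the positive fraction, and Tlr1 and Tlr6, the partners of Tlr2. Capitals mark matches on either strand to 1 of 3 motifs: the NF-kB consensus (kappaB), the core of the interferon-stimulated response element (ISRE; GAAA, any 2 bases, GAAA), and the PU.1 core GAGGAA, PU.1 being a transcription factor of the macrophage lineage.
Tlr2, chr3:83841609-83841858, minus strand: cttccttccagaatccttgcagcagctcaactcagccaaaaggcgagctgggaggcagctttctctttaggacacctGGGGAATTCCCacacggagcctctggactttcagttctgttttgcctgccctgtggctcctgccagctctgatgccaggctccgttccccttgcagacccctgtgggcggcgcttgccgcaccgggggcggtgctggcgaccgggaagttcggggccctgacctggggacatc
Tlr3, chr8:45410381-45410630, minus strand: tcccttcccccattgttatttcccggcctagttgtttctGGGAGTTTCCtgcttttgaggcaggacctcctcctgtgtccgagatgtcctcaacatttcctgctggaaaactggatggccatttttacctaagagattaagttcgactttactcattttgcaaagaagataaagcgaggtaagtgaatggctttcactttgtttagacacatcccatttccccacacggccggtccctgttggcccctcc
Tlr1, chr5:64933559-64933808, minus strand: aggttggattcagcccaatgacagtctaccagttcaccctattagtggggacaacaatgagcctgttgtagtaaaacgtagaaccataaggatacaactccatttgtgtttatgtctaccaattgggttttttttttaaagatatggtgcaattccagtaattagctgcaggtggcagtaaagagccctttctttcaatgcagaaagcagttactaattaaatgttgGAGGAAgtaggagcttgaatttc
Tlr6, chr5:64959167-64959416, minus strand: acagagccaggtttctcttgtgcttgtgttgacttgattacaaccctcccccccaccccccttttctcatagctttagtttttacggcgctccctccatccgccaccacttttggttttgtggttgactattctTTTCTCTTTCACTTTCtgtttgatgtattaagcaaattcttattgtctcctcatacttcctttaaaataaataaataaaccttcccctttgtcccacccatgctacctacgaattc

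The Tlr2 window held 3 overlapping kappaB matches, both strands counted, at -173 to -163 from the start, and the Tlr3 window held 1 at -211 to -202. A kappaB match was present in 7.25% of all 32851 promoter windows of that length, and no other member's window held one. The Tlr6 window held 2 overlapping ISRE cores, which 2.98% of all windows held at least once. PU.1 cores stood in the windows of Tlr1, Tlr8, Tlr9 and Tlr13, and in 23.3% of all windows. Tlr1 and Tlr6 each have a second start in RefSeq, and those windows (chr5:64932700-64932949 and chr5:64960049-64960298) held no match. The second Tlr1 window directly adjoins the Tlr1 gene range given above, and the first does not. The Tlr6 window shown lies inside the Tlr6 gene range, so its ISRE cores are upstream of 1 annotated start but within the gene. The Tlr3 window overlaps the Tlr3 range in part. These matches are letters in a window and were not measured as binding.

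**Figure D1:**
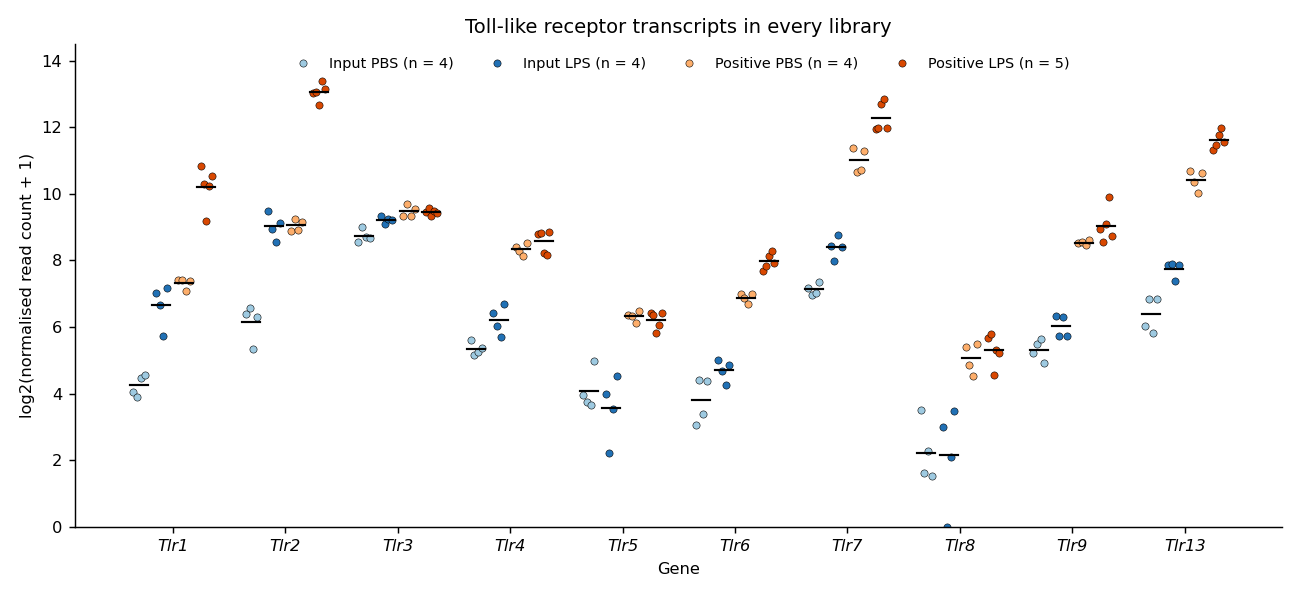
Normalised read counts of the 10 Toll-like receptors in every library, plotted as log2(normalised read count + 1) on the vertical axis, with 1 point per library and a bar at the group mean. Tlr2 in Positive LPS had 6457 to 10677 normalised read counts, Tlr7 came next there at 3967 to 7306, and Tlr8 stayed below 60 in all libraries.

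The first question of the design was whether these transcripts are enriched with the tagged ribosomes. All 10 members were more abundant in the positive fraction than in input of PBS animals. edgeR's quasi-likelihood test with Benjamini-Hochberg adjustment called all 10 higher at an adjusted p under 0.05 and a fold change over 1.25, where 21.0% of all tested genes were called higher, 18.8% lower and 39.8% in either direction. Tlr5, Tlr6 and Tlr8 passed the filter on low counts through the positive fraction alone, so for these 3 the direction was in part set by the filter. The median log2 difference of the 10 members was 3.03, and that of all tested genes was -0.00088. The 2 largest differences were those of Tlr13 (log2 4.01, SE 0.23, adjusted p 7.67e-11) and Tlr7 (3.91, SE 0.25, adjusted p 4.33e-10), both endosomal RNA sensors.

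Tlr13, for example, had 64.9, 114, 55.7 and 113 normalised read counts in the Input PBS libraries of animals 268, 272, 273 and 506, against 1652.5, 1299, 1048 and 1572 in their Positive libraries. For Tlr7 the Input values of the same animals were 144, 123, 130.1 and 164, and the Positive values were 2665, 1605, 1666 and 2501. In both genes every Positive library lay far above every Input library.

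A second set of members differed by about log2 3. These were Tlr9 (3.22, SE 0.27), Tlr1 (3.11, SE 0.36), Tlr6 (3.04, SE 0.27), Tlr4 (3.02, SE 0.23), Tlr8 (2.87, SE 0.57) and Tlr2 (2.87, SE 0.23), with Tlr5 at 2.19 (SE 0.36). Tlr4, the LPS receptor, had 48.3, 35.1, 37.0 and 40.0 normalised read counts in Input PBS and 340.2, 313, 282 and 369 in Positive PBS.

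Tlr3 stood apart. It had 372, 516, 413 and 411 normalised read counts in Input PBS and 641, 831, 643 and 743 in Positive PBS, a log2 difference of 0.74 (SE 0.11, adjusted p 3.65e-05), the smallest of the family. Within animals its log2 ratio of positive over input ran from 0.64 to 0.85, while the means of the other members in PBS animals were 2.23 or more. Of 8 endothelial markers 7 were also called higher in the positive fraction of PBS animals and none lower, beside 21.0% of all tested genes called higher. Their log2 differences ran from 0.61 to 1.73, a range that holds the 0.74 of Tlr3. Which cells carried Tlr3 was not tested.

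In LPS animals 9 of the 10 members were called higher in the positive fraction, where 27.6% of all tested genes were, with 25.8% lower and 53.4% in either direction. The exception was Tlr3, at a log2 difference of 0.23 (SE 0.11, adjusted p 0.076). The largest was that of Tlr2, at 4.01 (SE 0.21, adjusted p 1.80e-11). Tlr7 and Tlr13 were at 3.92 and 3.87, close to their differences in PBS animals. The 9 include Tlr5, Tlr6 and Tlr8, whose direction was in part set by the filter on low counts here too.

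**Figure D2:**
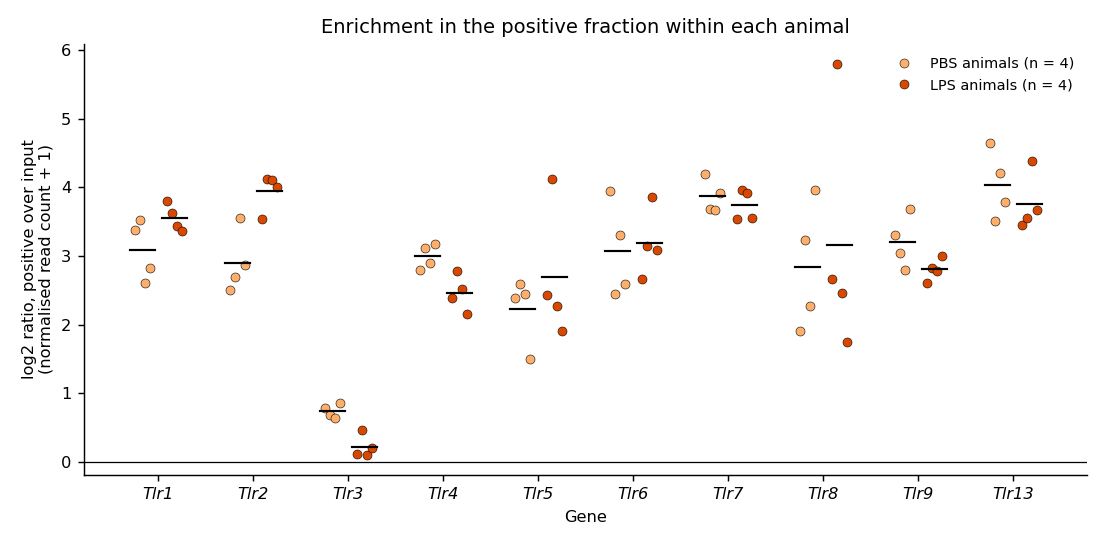
Log2 ratio of positive over input normalised read counts (each + 1) within the 8 animals that gave both fractions, with 1 point per animal and a bar at the mean. All points lie above 0, and Tlr3 lies lowest, at 0.10 to 0.85.

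The calls held under other scalings. With size factors from all 18 libraries, or with the log2 values the authors deposited, the median log2 difference of all tested genes moved to -0.12 and -0.13 in PBS animals, and the share of called genes that were higher fell from 52.8% to 37.6% and 37.0%. Every member that could be tested kept its call there. Tlr8 did not pass the filter when all 18 libraries were used.

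Read counts depend on transcript length, so levels were compared between genes as normalised read counts per kb of the longest GENCODE M21 transcript that is paired with a RefSeq mRNA, from 3.014 kb for Tlr2 to 4.407 kb for Tlr3. In Positive PBS the order was Tlr7 (541 ± 142 per kb, SD, n = 4), Tlr13 (343 ± 67.8), Tlr2 (177 ± 22.3), Tlr3 (162 ± 20.7), Tlr9 (106 ± 4.96), Tlr4 (80.0 ± 9.12), Tlr1 (53.1 ± 5.77), Tlr6 (32.0 ± 3.00), Tlr5 (24.8 ± 2.52) and Tlr8 (9.88 ± 3.09). Of neighbours in that order, Tlr2 and Tlr3 alone overlapped between libraries. The RNA sensors Tlr7 and Tlr13 thus headed the list in PBS, and the LPS receptor Tlr4 was in sixth place among the 10 members.

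In Positive LPS the order changed to Tlr2 (2858 ± 502 per kb, SD, n = 5), Tlr7 (1328 ± 424), Tlr13 (782 ± 147), Tlr1 (419 ± 151), Tlr9 (160.3 ± 66.6), Tlr3 (159 ± 9.01), Tlr4 (95.1 ± 21.3), Tlr6 (68.7 ± 11.3), Tlr5 (23.3 ± 4.08) and Tlr8 (11.8 ± 3.65). Neighbours that overlapped there were Tlr1 and Tlr9, Tlr9 and Tlr3, and Tlr4 and Tlr6. Input was ordered differently. Tlr3 led Input PBS at a mean of 97.1 per kb (range 84.3 to 117), ahead of Tlr7 at 36.0 ± 4.57, and in Input LPS Tlr2 (178 ± 47.0) and Tlr3 (136 ± 9.82) overlapped at the top.

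As a share of the summed level of the family per kb, Tlr2 made up 11.7% ± 2.12 of Positive PBS and 48.4% ± 5.07 of Positive LPS. The sum itself was 1529 ± 225 per kb in Positive PBS and 5905 ± 866 in Positive LPS. Tlr7 had the largest share before LPS, 35.0% ± 4.81, and 22.4% after it (range 17.9 to 31.7%). In Input PBS the largest share was that of Tlr3, 44.8% ± 4.27.

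**Figure D3:**
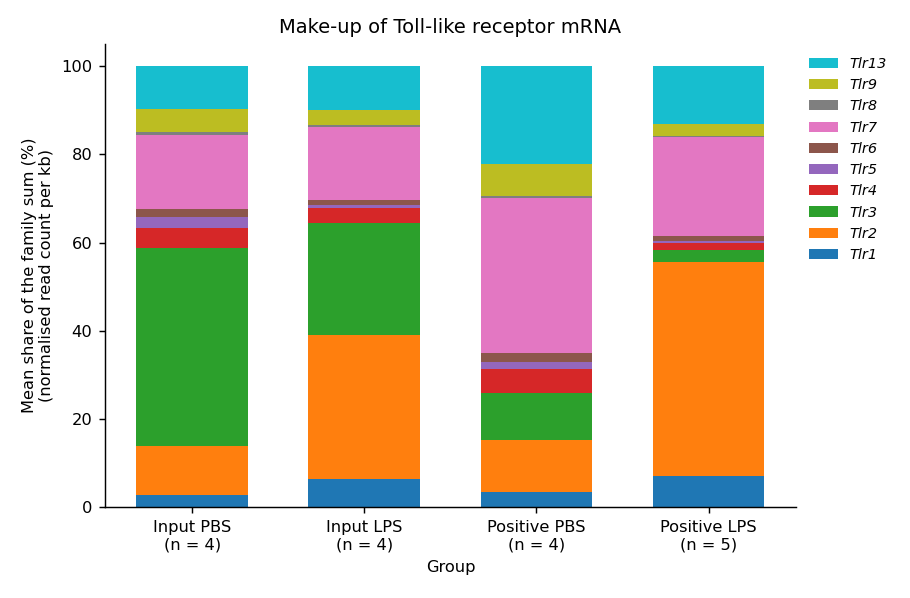
Mean share of each member in the summed level of the 10 members (normalised read counts per kb, percent) in the 4 groups, as stacked bars. Tlr2 takes 48.4% of Positive LPS and 11.7% of Positive PBS, and Tlr3 takes 44.8% of Input PBS.

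The next question was what LPS did to these transcripts in the positive fraction. In the positive fraction 6 of the 10 members rose and none fell, where 19.0% of all tested genes were called higher and 14.9% lower, 33.8% in all. The 6 were Tlr2, Tlr1, Tlr7, Tlr13, Tlr6 and Tlr9. The median log2 fold change of the 10 was 0.85, beside 0.011 for all tested genes.

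Tlr2, the lipopeptide receptor, had 475, 609, 478 and 570.1 normalised read counts in Positive PBS (animals 268, 272, 273 and 506). In Positive LPS it had 8310.2, 8608, 6457, 10677 and 9018 (animals 266, 267, 270, 271 and 507). No library of one group came near the other. The log2 fold change was 4.01 (SE 0.21, adjusted p 2.36e-10), or 16.1-fold.

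Its partner Tlr1 had 170.4, 171, 135 and 166 normalised read counts in Positive PBS and 1815, 1252, 576, 1203 and 1494 in Positive LPS. The groups did not overlap, and the library of animal 270 was the lowest after LPS by a wide margin. Tlr1 rose by a log2 fold change of 2.98 (adjusted p 3.87e-07, SE 0.29).

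The other partner, Tlr6, had 126, 115, 103 and 126 normalised read counts in Positive PBS against 205, 227, 277, 311 and 244 in Positive LPS. These groups did not overlap either, and the log2 fold change was 1.10 (SE 0.22, adjusted p 6.02e-04). Animal 270 had the lowest Tlr1 of the LPS animals and the next to highest Tlr6.

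Tlr7 had 2665, 1605, 1666 and 2501 normalised read counts in Positive PBS, and 3967, 3989.8, 6625, 7306 and 3993 in Positive LPS, a log2 fold change of 1.30 (adjusted p 9.14e-05, SE 0.21). Tlr13 went from 1652.5, 1299, 1048 and 1572 to 2552, 2799.5, 3476, 4049 and 2989.6, a log2 fold change of 1.19 (adjusted p 6.31e-05, SE 0.19). For both sensors of single-stranded or ribosomal RNA the groups did not overlap, at 2.45-fold and 2.28-fold.

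Tlr9, the CpG DNA receptor, is a narrow case. It had 364, 375, 349 and 389.8 normalised read counts in Positive PBS and 489, 377, 541, 957 and 423 in Positive LPS. The groups overlapped, and the library of animal 271 lay far above the rest. Its log2 fold change was 0.59 (SE 0.22, adjusted p 0.0408), and without that library it was 0.31 (adjusted p 0.142). The call was also lost without any one of the 4 Positive PBS libraries (adjusted p 0.0645 to 0.0899), without the Positive LPS library of animal 270 (0.0507), and under 6 of the 11 other settings. Among these was the edgeR fit with sex as a term (log2 fold change 0.54, adjusted p 0.076).

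Tlr4 did not pass the threshold in the positive fraction. It had 340.2, 313, 282 and 369 normalised read counts in Positive PBS and 447, 447, 298, 287 and 458 in Positive LPS, and its log2 fold change was 0.25 (SE 0.19, adjusted p 0.302), with an interval of 2 SE from -0.13 to 0.62. The 5 LPS libraries fell into 3 at 447 to 458 and 2, from animals 270 and 271, within the range of PBS.

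Tlr3 also missed it, at a log2 fold change of -0.03 (adjusted p 0.84, SE 0.11) and an interval of 2 SE from -0.24 to 0.18. Its values were 641 to 831 in Positive PBS and 650.2 to 757 in Positive LPS. Tlr5, the flagellin receptor, was at -0.09 (interval -0.70 to 0.52) with 68.4 to 87.9 in Positive PBS and 55.6 to 85.3 in Positive LPS. Tlr8 was at 0.24 (interval -0.61 to 1.09) with 22.2 to 44.4 and 22.6 to 54.8.

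**Figure D4:**
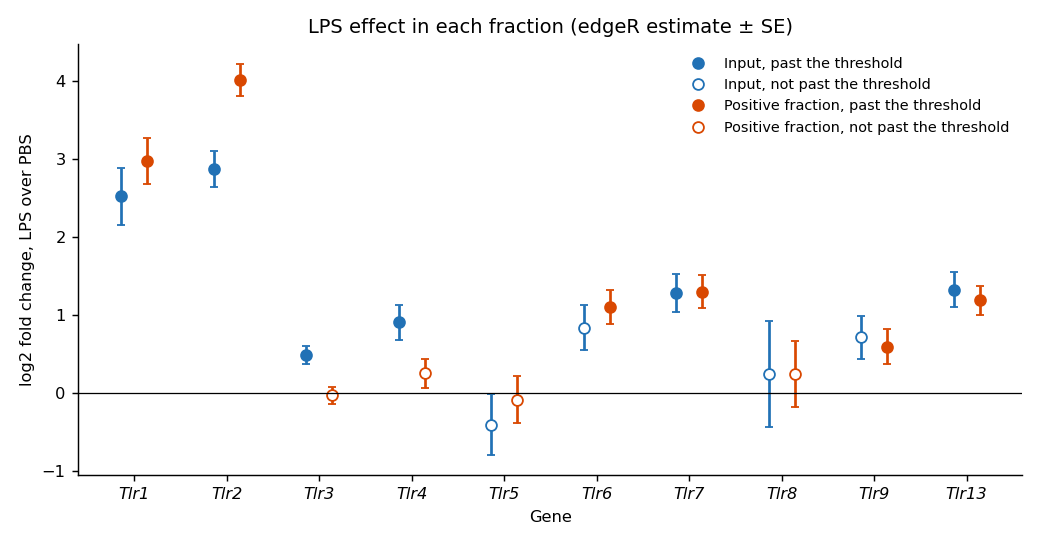
Log2 fold change of LPS over PBS with its SE for each member, in input (blue) and in the positive fraction (orange), with filled points past the threshold of the test. Tlr2 has the largest change in both fractions, 2.87 in input and 4.01 in the positive fraction, and Tlr3 and Tlr4 are filled in input only.

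In whole-brain input 6 members rose and none fell, where 7.16% of all tested genes were called higher and 5.26% lower, 12.4% in all. They were Tlr2, Tlr1, Tlr13, Tlr7, Tlr4 and Tlr3, and the median log2 fold change of the 10 was 0.87, beside 0.0036 for all tested genes. This background is lower than in the positive fraction, so the same count of members stands against fewer called genes.

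Tlr2 had 82.9, 93.4, 39.9 and 77.2 normalised read counts in Input PBS (animals 268, 272, 273 and 506) and 714, 496, 374 and 560.1 in Input LPS (animals 266, 267, 270 and 507). The log2 fold change was 2.87 (SE 0.23, adjusted p 1.60e-07). Tlr1 went from 15.5, 13.9, 21.2 and 22.5 to 129, 101, 52.1 and 144, a log2 fold change of 2.52 (adjusted p 1.04e-04, SE 0.37). For Tlr13 and Tlr7 the log2 fold changes were 1.33 (SE 0.22) and 1.28 (SE 0.24), and no LPS library overlapped a PBS library in any of these 4 genes.

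Tlr4 had 48.3, 35.1, 37.0 and 40.0 normalised read counts in Input PBS and 84.8, 64.3, 50.9 and 102 in Input LPS. All LPS libraries were above all PBS libraries, and the log2 fold change was 0.91 (SE 0.23, adjusted p 0.0108). Tlr3 had 372, 516, 413 and 411 in Input PBS and 651, 546, 607 and 591 in Input LPS, again without overlap, and its log2 fold change was 0.49 (SE 0.11) at an adjusted p of 0.00705. With fewer libraries, without the animals numbered 506 and 507, the log2 fold changes were 0.73 for Tlr4 and 0.47 for Tlr3, and neither was called (adjusted p 0.109 and 0.0718).

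Tlr9 and Tlr6 did not pass in input, at log2 fold changes of 0.71 (adjusted p 0.0946) and 0.84 (adjusted p 0.0606). With the animal as a random block in limma both were called, Tlr9 at 0.79 (adjusted p 0.0306) and Tlr6 at 0.92 (adjusted p 0.0478), and Tlr6 was called under 5 of the 11 other settings. The 4 Tlr9 libraries after LPS (52.1 to 79.0) were nevertheless all above the 4 of PBS (29.5 to 49.3). Non-overlap in that direction was seen for 7 members in input, and for 12.6% of all tested genes. In the positive fraction it was seen for 5 members and 17.1% of genes. Tlr5 and Tlr8 had group means of 4.52 to 17.3 normalised read counts in input, and Tlr8 was at 0 in the Input LPS library of animal 267, where 3 counts would be 2.76 normalised read counts.

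Whether LPS acted differently in the 2 fractions was asked of each member directly, as the difference of the 2 log2 fold changes. Tlr2 was the 1 member called, at 1.14 (SE 0.29, adjusted p 0.0227), where 5.46% of all tested genes were called higher and 1.42% lower, 6.88% in all. Within animals, the log2 ratio of positive over input for Tlr2 was 2.50 to 3.55 in PBS animals, and in LPS animals it averaged 3.94 ± 0.27 (SD, n = 4) with a lowest value of 3.54. These 2 ranges touched at 1 PBS animal. The difference was 1.07 when animal 268 was left out of Input PBS (adjusted p 0.0546) and 1.01 when animal 272 was (0.0705). Without animals 506 and 507 it was 1.15 (0.158), and none of these fits called it. With the animal as a term in edgeR, which pairs the fractions, it was called at 1.06 (SE 0.19, adjusted p 0.00246).

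For Tlr3 the difference went the other way, at -0.52 (SE 0.16, adjusted p 0.0535), short of the threshold. With the animal as a term, which pairs the fractions, it was -0.52 with an adjusted p of 0.0112. Within animals the Tlr3 ratio was 0.64 to 0.85 in PBS and 0.10 to 0.47 in LPS animals, so the ranges did not overlap. Tlr4 had a difference of -0.66 (SE 0.29, adjusted p 0.217), with ratios of 2.79 to 3.17 in PBS and 2.16 to 2.78 in LPS animals. With the animal as a term the Tlr4 difference was -0.55 (adjusted p 0.0811), also short of the threshold. For the other 7 members the differences lay between -0.14 and 0.45, with adjusted p from 0.666 to 0.999.

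Transcripts that mark other cell types moved with LPS as well, and the part of such cells in these results was not tested. The summed level of 10 neutrophil markers, such as S100a8 and Retnlg, was 472 to 869 in Input PBS and 770.1 to 1677 in Input LPS, and 145 to 327 in Positive PBS and 434 to 1158 in Positive LPS. Of these 10 genes 6 passed the filter and 5 were called higher in each fraction, where 19.0% (positive) and 7.16% (input) of all tested genes were, while Elane was at 0 in all libraries of the positive fraction. Between fractions, in PBS animals 4 of the 6 were called lower in the positive fraction (18.8% of all tested genes were) and in LPS animals 3 of the 6 (25.8%), where S100a8 had a log2 difference of 0.40 (adjusted p 0.362) and Mmp8 of -0.11 (adjusted p 0.87). Of 8 monocyte markers 7 were in the matrix, and their sum was 2615 to 5605 in Positive PBS and 1611 to 3880 in Positive LPS, with 2 of the 5 tested genes called lower and none higher, beside 14.9% of all tested genes called lower. For border macrophage markers the sum was 3818 to 7821 in Positive PBS and 3491 to 5026 in Positive LPS. Of these 8 genes 4 were called lower and 1 higher there, beside 14.9% and 19.0% of all tested genes. Their log2 fold changes ran from -2.39 to 2.53. The sum of 5 B-cell markers was 96.2 to 149 in Positive PBS and 224 to 388 in Positive LPS, with Ighm at 0 in all libraries. Of these 5 only Cd79b passed the filter, and in the positive fraction its log2 fold change was 1.35 (adjusted p 9.09e-05).

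Of the 10 microglial markers 8 were called lower in the positive fraction and none higher, with a median log2 fold change of -1.10 over the 10, where 14.9% of all tested genes were called lower. Cx3cr1 and Csf1r did not pass there (-0.20, adjusted p 0.411, and -0.16, adjusted p 0.222). In input 6 of the 10 were called lower, beside 5.26% of all tested genes. The endothelial marker sum was 6349 to 9035 in Positive PBS and 5054 to 7910 in Positive LPS, above input, where it was 2628 to 3873 and 3203 to 4517.

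Over the 17 libraries each member was set beside the 12609 tested genes whose mean level was 100 normalised read counts or above, by Pearson's r of log2(normalised read count + 1). These correlations describe a set of libraries that share 2 fractions and 2 treatments, and carry no test. Tlr2 was most like Igsf6 (r = 0.997), Lgals3bp (0.995) and Slfn2 (0.992), and Tlr1 most like Lilrb3 (0.992), Ifih1 (0.987) and Ms4a6d (0.987). Tlr6 and Tlr13 were near the top of each other's list (r = 0.994), and B2m, the light chain of MHC class I, was among the 3 genes most like Tlr6, Tlr7 and Tlr13.

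For Tlr4 the most similar genes were Itgam (r = 0.991), the integrin chain CD11b, with Dnm2 and Hk2. For Tlr7 they were Lpxn (0.992), Runx1 (0.990) and B2m, for Tlr9 Tnfrsf1b (0.988), Ccl9 and Adap2, and for Tlr5 Rps6kc1 (0.953), Arhgap25 and Rasal3. Tlr3 was most like Tm4sf1 (0.932), Gimap6 (0.930) and Tmem176a (0.918), and Tlr8, at its low counts, most like Stau1 (0.931), Slc38a7 and 5031414D18Rik.

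The 58 other genes of the pathway all passed the filter. In the positive fraction 28 rose and 3 fell after LPS, with a median log2 fold change of 0.40, and in input 18 rose and 2 fell, with a median of 0.21. Over all tested genes 19.0% and 7.16% were called higher in the positive fraction and input, and 14.9% and 5.26% were called lower. The difference between fractions was called for 10 of the 58, all higher in the positive fraction, beside 5.46% of all tested genes called higher.

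Among 8 co-receptors 4 rose and 2 fell in the positive fraction. Cd14, which hands LPS to TLR4, went from 1627 ± 146 to 5989 ± 886 normalised read counts there (log2 fold change 1.88, SE 0.11) and rose as much in input (1.94, SE 0.13). Lbp, the LPS-binding protein, rose by 2.15 and 2.11 in the positive fraction and input. Unlike Cd14, Lbp was called lower in the positive fraction than in input. Its log2 differences were -1.30 in PBS and -1.26 in LPS animals, and those of Cd14 were 3.99 and 3.93. Which cells carried the rise of Lbp was not tested. The scavenger receptor Cd36 fell by 1.48 in the positive fraction, and Tril fell by 0.78 there and by 0.69 in input. Rftn1, which encodes raftlin, rose by 1.28 in the positive fraction (adjusted p 2.44e-07) and fell by 0.57 in input (adjusted p 0.00477), and its difference between fractions was called at 1.85 (adjusted p 6.37e-06). Ly96, which encodes MD-2, did not pass in either fraction (0.39, adjusted p 0.185, and -0.13, adjusted p 0.806), so Cd14 and Lbp rose while Tlr4 and Ly96 did not pass in the positive fraction.

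Of 11 chaperones, proteases and transporters that serve endosomal receptors, 2 rose in each fraction, in the positive fraction a share near the 19.0% of all tested genes: Slc15a3, a transporter of the endolysosome (log2 fold change 2.20 in the tagged fraction, 1.95 in input), and the protease Ctsl (1.72 and 1.05). Unc93b1, which carries the endosomal receptors out of the endoplasmic reticulum, was at -0.10 (adjusted p 0.552) in the positive fraction and 0.17 (adjusted p 0.443) in input. Its level in the positive fraction was 8022 ± 707 normalised read counts in PBS and 7492 ± 1187 in LPS animals.

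Of 6 adaptors 5 rose and 1 fell in the positive fraction. The largest were Pik3ap1 (log2 fold change 2.03), Myd88 (1.47, SE 0.13, adjusted p 6.48e-08) and Tirap (1.07). Ticam1, the gene of TRIF, rose by 0.68 (adjusted p 0.00788) in the positive fraction and was at 0.11 (adjusted p 0.763) in input, where Myd88 rose by 0.86 and Pik3ap1 by 1.67.

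Among 15 kinases and TRAF-complex genes 5 rose and none fell in the positive fraction, led by Ikbke (log2 fold change 5.43, SE 0.48), Ripk1 (0.91) and Chuk (0.52). In input 3 rose: Ikbke (2.71), Ripk1 (0.62) and Tbk1 (0.37). Ikbke encodes a kinase that activates interferon regulatory factors, and it had 17.9 to 30.5 normalised read counts in Positive PBS and 265 to 1666 in Positive LPS. Of 8 NF-kB and IRF genes 7 rose in the positive fraction, led by Irf7 (2.53), Nfkb2 (2.07) and Relb (1.39), and 4 rose in input, led by Irf7 (3.01), Nfkb2 (1.27) and Relb (0.56).

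Of 10 inhibitors of the pathway 5 rose in each fraction and none fell, and Sigirr, Il1rl1, Cyld, Tollip and Socs1 did not pass both thresholds in either. In the positive fraction the largest were Nfkbiz (log2 fold change 3.90), Irak3 (3.81), which encodes a kinase-dead brake on MyD88 signalling, and Tnfaip3 (3.22), which encodes the deubiquitinase A20. In input they were Irak3 (1.97), Tnfaip3 (1.49) and Nfkbiz (0.997). These 5 inhibitors are also 5 of the 10 pathway genes whose LPS effect was called larger in the positive fraction, with differences of 0.52 for Tnip1 to 2.91 for Nfkbiz.

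**Figure D5:**
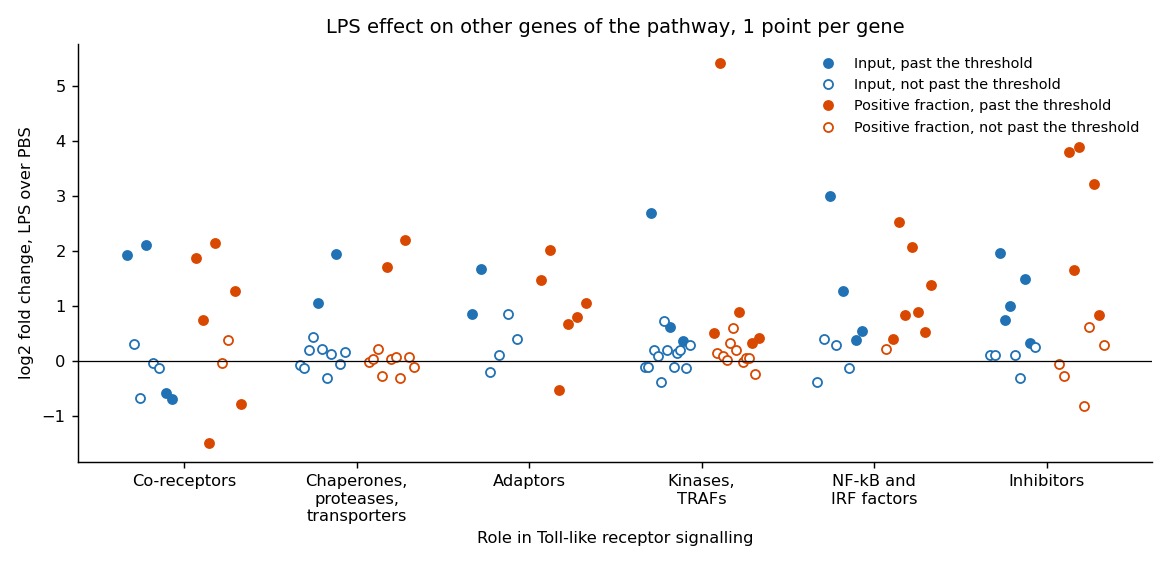
Log2 fold change of LPS over PBS for 58 other genes of the pathway, grouped by role, with 1 point per gene in input (blue) and in the positive fraction (orange), filled where past the threshold. The highest point is Ikbke in the positive fraction, at 5.43, and of the NF-kB and IRF factors 7 of 8 are filled there.

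The 2 remaining mouse Toll-like receptors were not in the set. Tlr11 was listed at 0 in all 17 libraries. Tlr12 had 225 to 359 normalised read counts in Positive PBS and 77.0 to 188 in Positive LPS, and 11.9 to 39.2 and 1.64 to 21.1 in Input PBS and Input LPS. Per kb its mean was 92.1 in Positive PBS, above the 80.0 of Tlr4, and 37.0 in Positive LPS. The order and the shares per kb given above leave Tlr12 out. After LPS Tlr12 fell in the positive fraction by 1.31 on the log2 scale (adjusted p 0.00629 in edgeR), and in input its log2 fold change was -0.99 (adjusted p 0.195).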

How the data were processed

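Libraries were stranded poly(A) libraries. The authors trimmed paired reads to 42 bases, aligned them by strand to mm10 in Strand NGS and deposited estimated counts per gene, of which 81.6% of nonzero values were not whole, with log2 values that were normalised by DESeq and centred by the authors. Counts were rounded and scaled by median-of-ratios size factors over 15766 genes (0.766 to 1.32). Genes with over 20 normalised counts in every library of at least 1 group were tested (14803) with edgeR 4.0.16 in R 4.3.3, as contrasts of the 4 group means (13 residual degrees of freedom). Calls needed a Benjamini-Hochberg adjusted p under 0.05 and a fold change over 1.25. Fractions of 1 animal are paired: deviations from group means correlated at 0.16 to 0.52 in 8 animals. DESeq2 1.42.0 and limma 3.58.1 were alternatives. Other settings were TMM scaling, other filters, an animal block, sex, all 18 libraries, and single libraries or animals left out. The members and gene lists were chosen with earlier results of these data known. All 10 members are named, as are the leading 3 called genes of each pathway list, 5 partner genes, and the 3 most like genes. Ratios of positive over input and correlations used log2 with a pseudocount of 1. Libraries of 1 group come from separate animals.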

Additional observations from a re-analysis of the deposited data

Results flagged for a closer look

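Dixon's rule at the 95% level was applied to each of 40 sets of libraries (10 members in 4 groups), and it marked 4, where chance marks about 1 in 20. Tlr9 in the Positive LPS library of animal 271 had 957 normalised read counts, beside 377 to 541 in the other 4. Tlr1 in the Positive PBS library of animal 273 had 135, beside 166 to 171 in the other 3. Tlr5 in the Input PBS library of animal 506 had 30.5, beside 11.7 to 14.6. Tlr13 in the Input LPS library of animal 270 had 166, beside 233 to 237. A difference between the fractions in the LPS effect was called for Tlr2, at 1.14 on the log2 scale (SE 0.29, adjusted p 0.0227 in edgeR).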

How the results depend on the processing

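Of 1383 values of single members under an alternative, 1310 kept their direction and side of the threshold, 18 lost the call, 17 gained it and 38 changed sign. Members called, leaving out 1 library in turn, ranged from 5 to 6 (LPS, positive fraction), 6 to 7 (LPS, input), 10 to 10 and 9 to 9 (fractions in PBS and LPS animals) and 0 to 2 (difference). Over all genes these ranges were 4432 to 5120, 1452 to 1979, 5297 to 6066, 7447 to 8127 and 749 to 1263. For the difference, 2 members were called by DESeq2, by limma with a trend and with sex as a term (Tlr2 and Tlr3), and 0 without animals 506 and 507 or with the deposited log2 values (Tlr2 1.13, adjusted p 0.0667). Without those animals 1083 genes were called for LPS in input and 323 for the difference, and the cause was not tested beyond the fewer samples. With the replicate block, which pairs fractions by animal, 2 members and 1915 genes were called for the difference, adding Tlr3. As a random block in limma it gave 8 members for LPS in input, with Tlr6 (0.92, adjusted p 0.0478) and Tlr9 (0.79, adjusted p 0.0306), and 5 in the positive fraction, without Tlr9 (0.51, adjusted p 0.0832). That fit changed the tool as well: limma without the block already called Tlr6 in input (adjusted p 0.0401) and lost Tlr9 in the positive fraction (0.0817), so next to it the block added Tlr9 in input alone. The block changed no other member's call.

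Values that changed sign were all of uncalled members. For LPS in the positive fraction Tlr3 was 0.023 with all 18 libraries and 0.027 on the deposited values, and single left-out libraries gave -0.081 to 0.050 (Tlr3) and -0.15 to 0.0067 (Tlr5). In input Tlr8 was -0.062 in limma with a trend, -0.061 with the random block and -0.62 without animals 506 and 507, and single libraries gave -0.37 to 1.01 (Tlr8) and -0.81 to 0.018 (Tlr5). For the difference Tlr8 was 0.0040 (DESeq2), 0.29 (limma), 0.014 (TMM), 0.0030 (no filter), 0.0025 (filter of 10), 1.05 (without 506 and 507) and 0.047 (sex), Tlr7 was -0.14 with the block and Tlr9 0.012 without 506 and 507. Single libraries gave -0.77 to 0.61 (Tlr8), -0.14 to 0.14 (Tlr7), -0.11 to 0.72 (Tlr5) and -0.30 to 0.025 (Tlr13). Tlr5, Tlr6 and Tlr8 in input rest on few reads.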

Other observations

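Within the Positive LPS group 2 animals, 270 and 271, differed from the other 3 in several members at once. Their libraries had 6625 and 7306 normalised read counts of Tlr7, beside 3967 to 3993 in animals 266, 267 and 507, and 3476 and 4049 of Tlr13, beside 2552 to 2989.6. Tlr6 (277 and 311, beside 205 to 244) and Tlr9 (541 and 957, beside 377 to 489) had the same order. Tlr4 had the opposite one, with 298 and 287 beside 447 to 458, as had Tlr5, with 55.6 and 66.3 beside 80.8 to 85.3. Both animals are female, as are 266 and 507. In input, animal 270 had the highest Tlr7 (435) and the lowest Tlr4 (50.9) of the 4 LPS animals, but also the lowest Tlr13 (166). These animals were picked for their values, so no test was made.

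Among PBS animals the female and male libraries of the positive fraction did not overlap for several members, X-linked and autosomal. Tlr7 was 2501 and 2665 in the 2 females and 1605 and 1666 in the 2 males, Tlr13 was 1572 and 1652.5 against 1048 and 1299, and Tlr8 was 41.3 and 44.4 against 22.2 and 27.8. Of autosomal members Tlr4 was 340.2 and 369 against 282 and 313, Tlr6 was 126 and 126 against 103 and 115, and Tlr5 was 80.6 and 87.9 against 68.4 and 79.9. In Positive LPS the 1 male, animal 267, had the highest Tlr8 (54.8, beside 22.6 to 49.6 in females), and its Tlr7 (3989.8) and Tlr13 (2799.5) lay within the female range. In Positive PBS the sexes overlapped for Tlr1, Tlr2, Tlr3 and Tlr9. No test was made with 2 animals of each sex. The share of all tested genes without such overlap was not counted, so no sex pattern of the family is read from these values. In input Tlr7 was 144 and 164 in females and 123 and 130.1 in males, and the Tlr13 ranges of females (64.9 to 113) and males (55.7 to 114) overlapped.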
